A study of Mus musculus with 12 samples.

Results

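The islet hormone genes were examined as a set of 10 genes, Ins1, Ins2, Iapp, Gcg, Sst, Ppy, Pyy, Ghrl, Chga and Chgb, of 21851 protein-coding genes (GENCODE vM21, GRCm38). They were chosen by name, and every cJun or H3K4me3 peak within 50 kb of their gene bodies was assigned to them, which gave 26 H3K4me3 peaks of 19372 in DMSO, 27 of 19032 in JNKi, 10 cJun peaks of 4960 in DMSO and 6 of 1632 in JNKi. Ppy and Pyy are neighbours and share peaks. The peaks came from CUT&RUN, in which a nuclease tethered to an antibody releases the DNA around its target, in Min6 cells. Min6 is a single line from a mouse insulinoma that stands in for β cells, and all groups carry that origin. Cultures were held for 48 hours in 20 µM SP600125, which blocks the JNK family of kinases (JNKi), or in DMSO alone. With IgG, cJun and H3K4me3 antibodies this made 12 samples, 2 biological replicates in each of 6 groups.

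Each islet cell type is known by the hormone it stores. β cells secrete insulin and amylin, α cells glucagon, δ cells somatostatin, PP cells pancreatic polypeptide and ε cells ghrelin, and the chromogranins are acidic proteins packed into granules of many endocrine cells. Histone H3 trimethylated on lysine 4 (H3K4me3) marks the start sites of active or poised genes, and unusually broad domains of it are known from genes of cell identity. cJun is a subunit of the AP-1 transcription factor and a target of JNK.

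The 5 promoters with or without the mark that the results turn on are shown first, as the bases before the RefSeq start site (GRCm38.p6). Capitals mark exact matches on either strand to the A-box core TAATG and the E-box CATCTG, elements known from insulin promoters, the TATA box TATAAA, and the cAMP response element TGACGTCA or its core TGACG. Of the 10 genes, 9 matched a RefSeq promoter by symbol (not Ins2).
Ins1 (chr19:52264047-52264296, plus strand): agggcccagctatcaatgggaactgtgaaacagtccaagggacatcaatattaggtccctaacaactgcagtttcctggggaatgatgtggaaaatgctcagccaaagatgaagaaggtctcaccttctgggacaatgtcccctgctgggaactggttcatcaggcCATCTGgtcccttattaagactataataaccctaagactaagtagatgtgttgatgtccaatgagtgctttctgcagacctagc
Iapp (chr6:142298175-142298422, plus strand): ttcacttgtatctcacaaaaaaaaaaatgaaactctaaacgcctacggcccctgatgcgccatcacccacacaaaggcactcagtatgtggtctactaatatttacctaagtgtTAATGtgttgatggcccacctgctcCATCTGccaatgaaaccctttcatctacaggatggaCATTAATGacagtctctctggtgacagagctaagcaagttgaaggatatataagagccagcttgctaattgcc
Gcg (chr2:62483654-62483903, minus strand): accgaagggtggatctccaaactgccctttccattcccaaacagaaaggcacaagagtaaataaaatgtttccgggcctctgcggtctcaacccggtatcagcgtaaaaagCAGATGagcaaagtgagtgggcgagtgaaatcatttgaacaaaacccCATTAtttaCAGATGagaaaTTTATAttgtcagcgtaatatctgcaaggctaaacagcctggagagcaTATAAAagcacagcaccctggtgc
Ppy (chr11:102101320-102101569, minus strand): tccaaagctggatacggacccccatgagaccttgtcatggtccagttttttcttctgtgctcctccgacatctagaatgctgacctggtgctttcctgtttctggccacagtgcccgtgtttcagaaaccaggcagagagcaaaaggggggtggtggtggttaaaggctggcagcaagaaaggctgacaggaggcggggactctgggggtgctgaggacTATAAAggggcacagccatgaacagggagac
Chga (chr12:102554691-102554940, plus strand): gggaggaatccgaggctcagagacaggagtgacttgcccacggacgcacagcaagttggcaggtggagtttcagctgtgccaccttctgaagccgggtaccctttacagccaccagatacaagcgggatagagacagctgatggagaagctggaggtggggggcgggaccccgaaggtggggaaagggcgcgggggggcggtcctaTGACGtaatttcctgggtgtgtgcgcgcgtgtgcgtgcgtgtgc

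Among 16515 protein-coding promoters, the 250 bases before the start site held TAATG in 21.1%, CATCTG in 12.2%, TATAAA in 11.9%, TGACGTCA in 2.08%, TGACG, which TGACGTCA contains, in 20.8%, and the AP-1 site TGACTCA or TGAGTCA in 3.95%. Of the 9 hormone promoters, 3 held TAATG (Iapp, Gcg and Sst), 3 held CATCTG (Ins1, Iapp and Gcg), 2 held TATAAA (Gcg and Ppy), 2 held TGACGTCA (Sst and Chgb) and 3 its core (Sst, Chga and Chgb). The AP-1 site had 0 matches in the 9. In Iapp the letters TAATG began at −136 and −72 with a further match on the other strand at −75, counted from the base before the RefSeq start site as −1. The Iapp run shown lacks the last 2 of these bases, since it stops before the GENCODE start site. The cAMP response element, which CREB family factors bind, is shown in 30 bases for the 3 genes with it or its core, since Sst and Chgb have a second annotated start site farther upstream, 114 bp in Sst and 364 bp in Chgb.
Sst (chr16:23890874-23890903, minus strand): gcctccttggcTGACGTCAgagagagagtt
Chga (chr12:102554886-102554915, plus strand): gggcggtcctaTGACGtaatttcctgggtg
Chgb (chr2:132781559-132781588, plus strand): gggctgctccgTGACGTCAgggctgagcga

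H3K4me3 separated the hormone genes into 2 groups of 5. Ins2, Iapp, Gcg, Chga and Chgb had an H3K4me3 peak within 1 kb of an annotated start site in DMSO and again in JNKi, and each of these peaks also covered a start site. Ins1, Sst, Ppy, Pyy and Ghrl had none in either treatment. With a limit of 0.05 on the IDR, the irreproducible discovery rate estimated from the replicates' ranks, 3 genes (Ins2, Iapp and Chgb) were left in DMSO and all 5 in JNKi. Over all protein-coding genes the share with such a peak was 58.8% in DMSO and 58.2% in JNKi, so the 5 of 10 hormone genes were near the background. Within 50 kb of the gene body, 8 of 10 had an H3K4me3 peak in each treatment, where the background was 77.7% and 77.2%. The exceptions were Ins1 and Sst. All 8 were the same in both lists, where 99% of genes with a DMSO peak in this window had a JNKi peak and 99.6% the reverse. IgG libraries have no list of their own and served the authors as the control against which peaks were called.

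**Figure D1:**
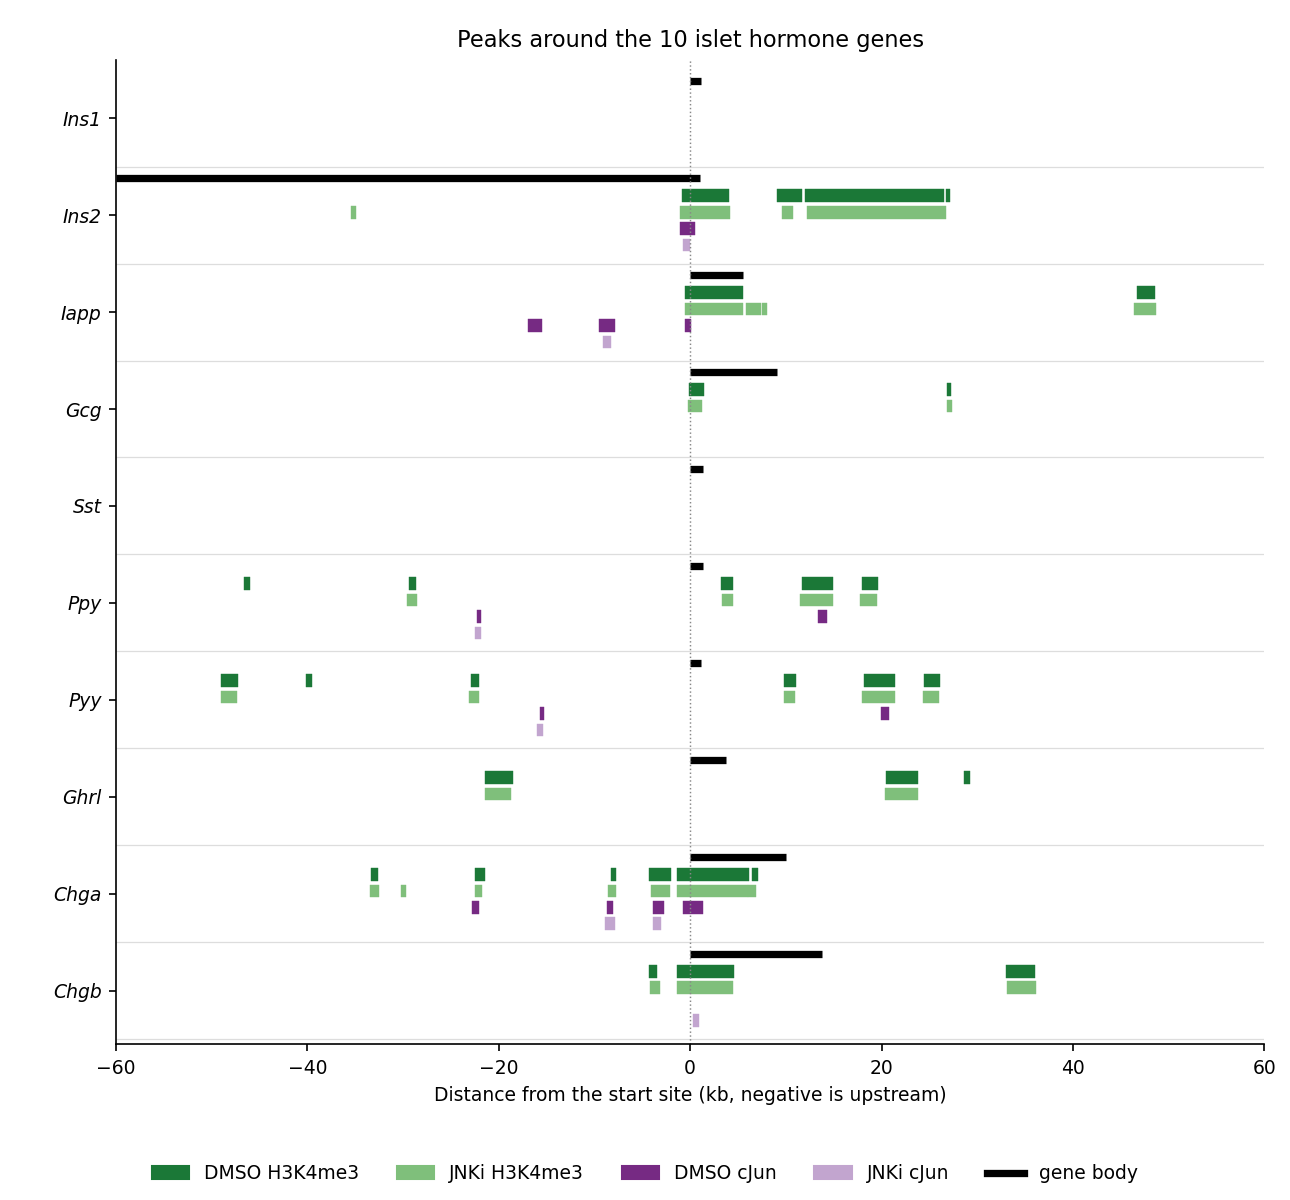
Peaks within 50 kb of the 10 islet hormone genes, drawn to scale by distance from the main start site (kb, transcription to the right). Black bars are gene bodies, green bars H3K4me3 and purple bars cJun peaks, darker for DMSO and lighter for JNKi. Ins1 and Sst have no peak of either kind, and the gene record of Ins2 runs off the left edge.

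The insulin genes differed from each other. Ins2 (ENSMUSG00000000215.11), the ancestral mouse insulin gene, has its main start site at 142679726 on the minus strand of chromosome 7, and its record of 64726 bp includes long transcripts that start far upstream. Its H3K4me3 peak measured 4939 and 4898 bp in the DMSO replicates and 5179 and 5144 bp in the JNKi replicates. The coding unit itself is 1071 bp long, and the peak passed its 3′ end by 3042 bp in DMSO and 3052 bp in JNKi. By −log10 p against IgG, the value used here to order peaks within a replicate or list, the Ins2 peak stood at percentiles 54.8 and 60.01 in DMSO and 55.8 and 57.4 in JNKi. Among start-site peaks of protein-coding genes alone, the merged peak stood at percentile 36.2 in DMSO and 32.1 in JNKi by −log10 p, below the typical marked gene. Ins1 (chromosome 19, 52264297 to 52265476), a retroposed copy of Ins2 that also encodes insulin in mice, had its nearest H3K4me3 peak 771563 bp away in DMSO and 771482 bp away in JNKi, at Xpnpep1. How far reads could be placed uniquely at either insulin gene was not tested.

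Downstream of Ins2 lay the widest H3K4me3 peak near any of the genes, 14560 bp in DMSO and 14521 bp in JNKi. It began 12009 bp past the Ins2 start site in DMSO and its midpoint was nearest to a start site of Igf2os, the antisense transcript of the growth factor gene Igf2. A weaker peak near Gm49394 separated it from the Ins2 peak in both treatments. These regions were not part of the Ins2 start-site peak.

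Iapp, which encodes amylin, the peptide co-secreted with insulin, was covered end to end. Its gene body (ENSMUSG00000041681.2, chromosome 6, 142298423 to 142303961, plus strand) lay 100% inside the start-site peak, which ended 34 bp past the gene in DMSO and 4 bp past it in JNKi. The replicates measured 6089 and 5955 bp in DMSO and 6127 and 5991 bp in JNKi, so the widths overlapped between treatments. The DMSO percentiles were 77.1 and 77.8 and the JNKi percentiles 87.9 and 84.7, both JNKi values being the higher. The JNKi list held a further pair of narrow peaks just beyond the gene (1514 and 492 bp, IDR 0.282 each) that DMSO did not.

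Gcg, the glucagon gene of α cells (ENSMUSG00000000394.15, chromosome 2, 62474530 to 62483650, minus strand), had a peak in this β cell line, narrow and weak. The DMSO replicates measured 1587 and 1498 bp and the JNKi replicates 1432 and 1283 bp. The −log10 p was 4.31 and 12.4 in DMSO and 30.6 and 21.4 in JNKi, which placed the merged peak at rank 18820 of 19372 in DMSO and 13527 of 19032 in JNKi. The IDR was 0.306 in DMSO and 0.00278 in JNKi. An IDR limit of 0.05 therefore removed the Gcg peak from the DMSO list only. The only other H3K4me3 peak within 50 kb lay 26862 bp past the start site in DMSO, near Gm13564, and was 446 bp wide.

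The other hormone genes of non-β cells carried no mark at their start sites. The nearest H3K4me3 peak to Sst, which encodes somatostatin (chromosome 16, 23889573 to 23890958), was 91267 bp away in DMSO and 91507 bp in JNKi. Ghrl, the ghrelin gene (chromosome 6, 113716119 to 113719880), lay between marked promoters of Tatdn2 and Sec13, with the nearer peak 16701 bp away in DMSO and 16630 bp in JNKi. Ppy and Pyy, which encode pancreatic polypeptide and peptide YY, are neighbours on chromosome 11 (102099930 to 102101319 and 102106676 to 102107832, minus strand). The peak nearest to them lay 1865 bp past the 3′ end of Ppy in DMSO and 1888 bp in JNKi. It was 1267 bp wide in DMSO and 1188 bp in JNKi, spanned 3254 to 4520 bp downstream of the Ppy start site in DMSO, and had an IDR of 0.00206 and 0.00245. All other H3K4me3 peaks around the pair were nearest to Mpp2, Tmem101, Gm11585 or Gm11586.

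The broadest of the 5 start-site peaks was at Chga. For Chga, which encodes chromogranin A (ENSMUSG00000021194.6, chromosome 12, 102554969 to 102565028, plus strand), the replicates measured 7482 and 7499 bp in DMSO and 7479 and 7119 bp in JNKi. Its −log10 p was 612.6 and 8.62 in DMSO, with summits 863 bp apart, and 579.5 and 520.4 in JNKi, with the same summit. Since a list keeps the lower value, the Chga peak ranked 16428 of 19372 in DMSO and 535 of 19032 in JNKi. Replicate values more than 10-fold apart occurred in 409 DMSO and 394 JNKi H3K4me3 peaks, and 86 and 95 of the top 100 peaks of these lists had an IDR above 0.05, while 73% and 75.6% of all H3K4me3 peaks had one of at most 0.05. The Chga IDR was 0.306 in DMSO and 0.0025 in JNKi, and its DMSO rank rests on 1 replicate.

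Chgb, which encodes chromogranin B (ENSMUSG00000027350.8, chromosome 2, 132781278 to 132795079, plus strand), had start-site peaks of 5883 and 5660 bp in DMSO and 5829 and 5694 bp in JNKi. They stood at percentiles 96.5 and 88.5 under DMSO and 97.7 and 95.5 under JNKi. Both widths and percentiles overlapped between the treatments. A small second peak lay upstream, from 4249 to 3468 bp before the start site in DMSO and from 4224 to 3164 bp in JNKi. Chga had more of these, with 4 H3K4me3 peaks upstream of its start site in DMSO, the farthest from 33321 to 32640 bp before it.

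**Figure D2:**
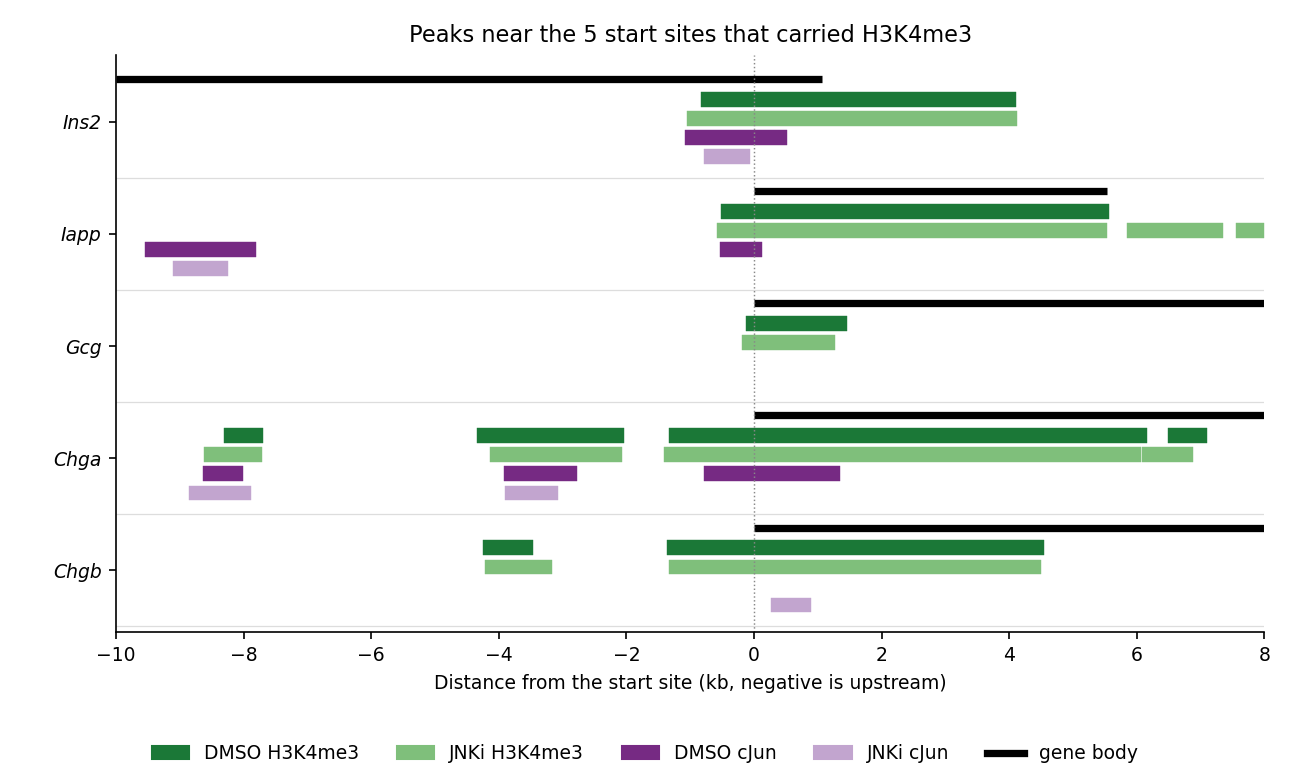
The 5 start sites with H3K4me3 at higher magnification, by distance from the start site (kb). Green bars are H3K4me3 and purple bars cJun peaks, darker for DMSO and lighter for JNKi. H3K4me3 reaches farther into the gene than upstream in all 5, and Iapp is covered from end to end.

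The widths were then set beside those of all marked genes. Over all protein-coding genes with a start-site peak, the DMSO median width was 2591 bp and the JNKi median 2658 bp. Ins2, Iapp, Chga and Chgb stood at width percentiles 94.6, 98.1, 99.2 and 97.7 among these peaks in DMSO and 95.6, 98.2, 99.2 and 97.6 in JNKi, and Gcg at 16.6 and 12.8. A width of at least 4 kb, a limit set after the values were seen, was found for 4 of the 5, against 13.8% of all start-site peaks in DMSO and 14.5% in JNKi. The mark also lay mainly on the transcribed side. Between 76.9% and 92.1% of the width of the 5 peaks in DMSO was downstream of the main start site, where the median over all genes was 65.8%.

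JNK inhibition was compared with DMSO next. The JNKi to DMSO width ratio was 1.05 for Ins2, 1.01 for Iapp, 0.997 for Chga, 0.987 for Chgb and 0.914 for Gcg. Their median of 0.997 compared with 1.01 over 12655 genes marked in both lists, of which the middle 80% ran from 0.903 to 1.12, so all 5 ratios lay inside that range. Both JNKi replicates were wider than both DMSO replicates for Ins2 (5161.5 ± 24.7 against 4918.5 ± 28.99 bp, mean ± SD, n = 2 each), as for 20.7% of all genes. Both were narrower for Gcg (1357.5 ± 105 against 1542.5 ± 62.9 bp) and for Chga (7299 ± 255 against 7490.5 ± 12.02 bp), as for 15.3% of all genes. The percentile was higher in both JNKi replicates for Iapp and Gcg (14.1% of all genes) and lower for none (22.7%). With 2 against 2 replicates an exact permutation test cannot go below p = 0.333, and no test was run on the replicate values of a single gene.

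**Figure D3:**
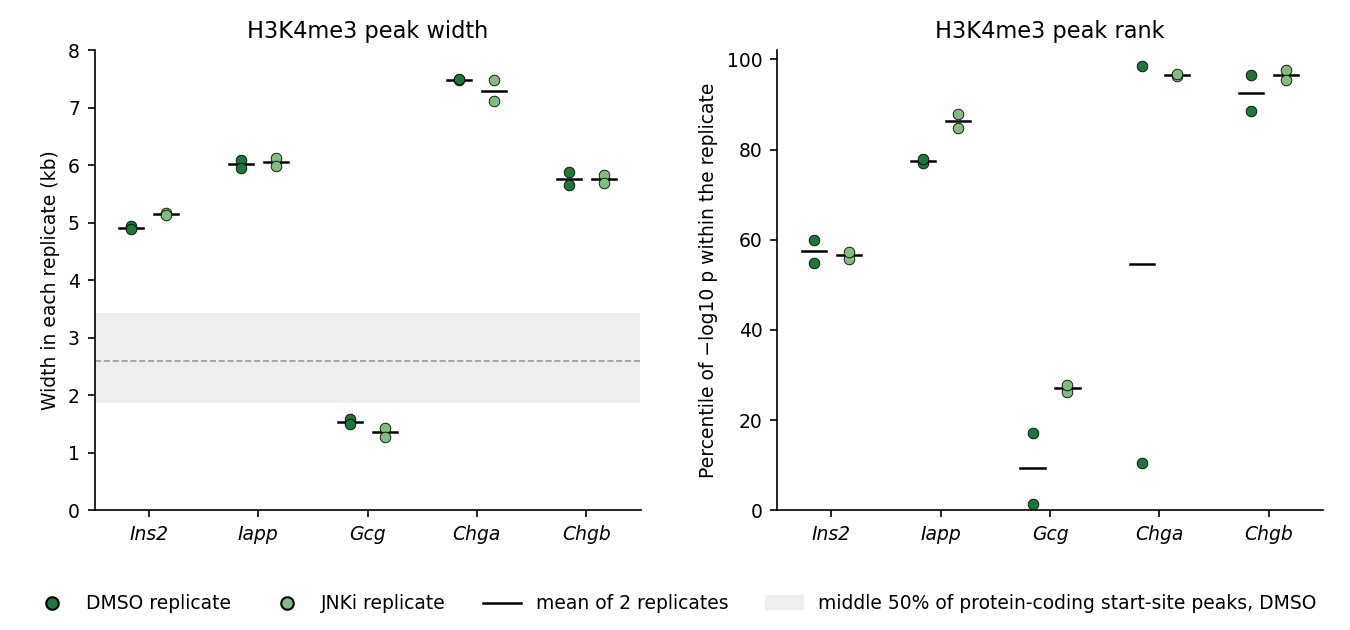
Width (left, kb) and within-replicate percentile of −log10 p (right) of the start-site H3K4me3 peak of 5 hormone genes, with 1 point per replicate, DMSO dark and JNKi light, and a black line at the mean of 2. The grey band holds the middle 50% of DMSO start-site peaks of protein-coding genes and the dashed line their median of 2591 bp. Gcg lies below the band and the others above it, and the DMSO points of Chga lie at 98.6 and 10.6.

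H3K4me3 around the genes was largely shared by the treatments. Of the 26 DMSO peaks near them 23 were overlapped by a JNKi peak, and of the 27 JNKi peaks 23 by a DMSO peak, where the backgrounds were 93.4% and 94.3%. Some lay at neighbouring genes, such as the H3K4me3 peaks at Pyroxd1 beside Iapp and at Trmt6 beside Chgb, found in both treatments. The unshared peaks, 3 in DMSO and 4 in JNKi, lay near Ins2 (the DMSO one nearest to Mir483), Ppy and Pyy, Ghrl (nearest to Gm43912), Iapp and Chga and had an IDR above 0.05 in every case.

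cJun peaks lay at the Ins2 start site in both treatments and at other hormone start sites in 1 treatment each. In DMSO, Ins2, Iapp and Chga (3 of 10) had a cJun peak within 1 kb of a start site, where the background was 6.89% of protein-coding genes and 11.6% of those with H3K4me3 at a start site. In JNKi, Ins2 and Chgb (2 of 10) had one, where the background was 2.49% and 4.2%. Among genes with an H3K4me3 start-site peak of at least 4 kb the background was higher, 21.5% in DMSO and 8.48% in JNKi. The matching counts were 3 of the 5 marked hormone genes and 3 of the 4 with such a broad peak in DMSO, and 2 of 5 and 2 of 4 in JNKi. Within 50 kb of the gene body, 5 of 10 had a cJun peak in DMSO and 6 of 10 in JNKi, against 28.1% and 12.1%. Gcg, Sst, Ghrl and Ins1 had none in either list, and Chgb had one in JNKi only. All 5 genes with a DMSO peak also had a JNKi peak in the window, where the background was 36%, and 5 of the 6 with a JNKi peak had a DMSO peak, where it was 83.6%. Ppy and Pyy enter these counts as 2 genes on the same peaks. Those peaks were nearest to Mpp2 and Gm11585 in DMSO (IDR 0.729 each) and to Gm11585 in JNKi (IDR 0.672).

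In all, the peaks fell on 11 sites, 5 of them found in both treatments, 5 in DMSO only and 1 in JNKi only. Thus 5 of 10 DMSO peaks near hormone genes were overlapped by a JNKi peak and 5 of 6 JNKi peaks by a DMSO peak, beside 23.6% and 72% over the whole lists. Their median percentile within the list was 34.7 in DMSO and 62.0 in JNKi. At an IDR of at most 0.05, 0 of the 10 DMSO peaks and 1 of the 6 JNKi peaks remained, where the lists kept 8.97% and 15.6%. H3K4me3 of the same treatment overlapped 7 of 10 and 4 of 6 of them, beside 53.4% and 55.5% of all cJun peaks.

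**Figure D4:**
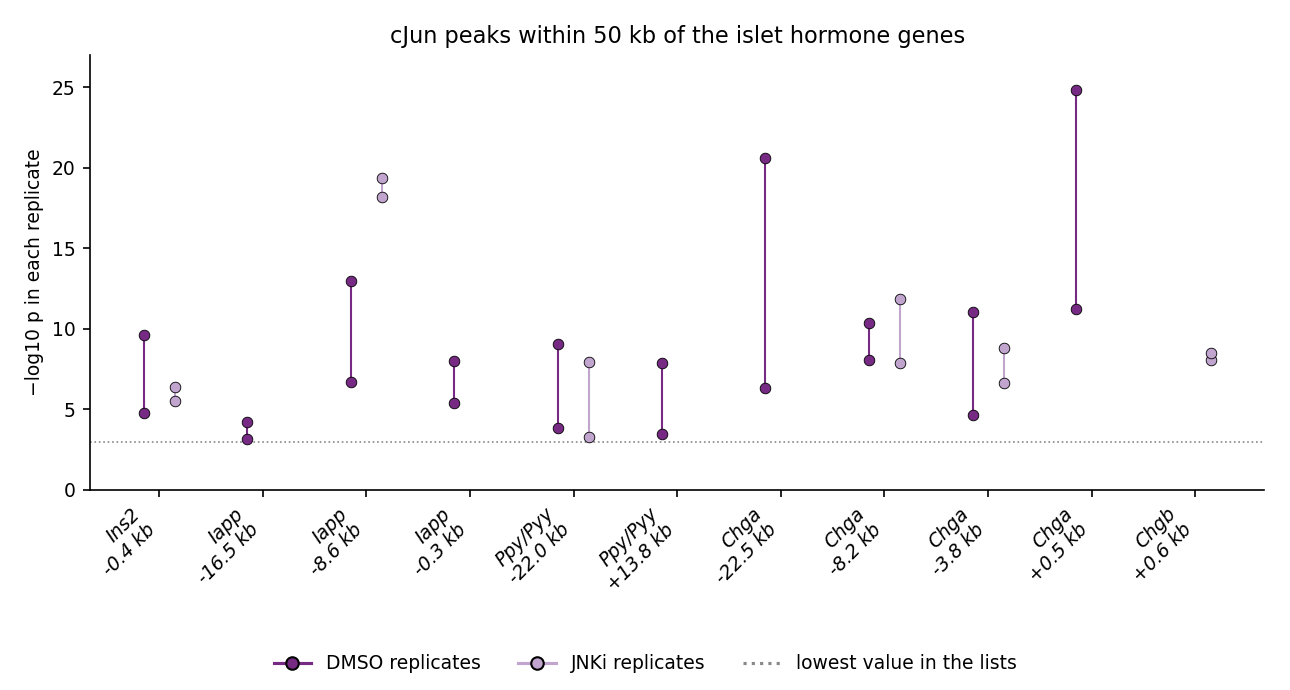
The −log10 p against IgG of the 11 cJun sites within 50 kb of the hormone genes, labelled by gene and summit distance from its start site (kb), with 1 point per replicate and a line joining the replicates of a treatment. A treatment without points has no peak there. The dotted line at 3 is the lowest value in the lists, and values of DMSO (dark) and JNKi (light) come from separate lists of libraries with the same stated depth, whose depth reached was not measured here.

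The cJun peak retained under JNKi with the highest rank lay upstream of Iapp. Its summit was 8556 bp before the start site, it measured 858 and 377 bp in the replicates, and its −log10 p was 19.4 and 18.2, rank 74 of 1632 with an IDR of 0.00692. In DMSO the same site had a summit 8562 bp before the start site, widths of 1744 and 899 bp, and −log10 p of 13.0 and 6.72, rank 1949 of 4960 with an IDR of 0.384. No H3K4me3 peak overlapped it in either treatment. The cJun peaks at the Iapp start site (summit 261 bp upstream, −log10 p 7.99 and 5.42) and 16542 bp upstream, nearest to Slco1a5 (4.23 and 3.17), were in the DMSO list only. Values are not comparable between lists, so the difference at these sites was not tested.

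At Ins2 the cJun summit lay 443 bp before the main start site in DMSO and 445 bp before it in JNKi. The DMSO peak was 1600 bp wide and covered the start site, with −log10 p of 4.80 and 9.64, rank 3521 of 4960 and an IDR of 0.527. The JNKi peak was 725 bp wide and ended 62 bp before the start site, with −log10 p of 6.41 and 5.50, rank 987 of 1632 and an IDR of 0.672. All 3 DMSO peaks counted at start sites covered a GENCODE start site, and neither of the JNKi peaks did, although the JNKi peak at Chgb covered the RefSeq start site at 132781642.

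Chga had the most cJun peaks, 4 in DMSO and 2 in JNKi. The DMSO peak at its start site spanned 780 bp before to 1354 bp after it, with −log10 p of 11.3 and 24.9, rank 563 and an IDR of 0.0804, and no JNKi peak overlapped it. Peaks about 8 kb upstream (8.07 and 10.4 in DMSO, 11.9 and 7.89 in JNKi) and in the next upstream region (summits 3775 and 3386 bp before the start site) were found in both treatments, each over an H3K4me3 peak. The farthest, 22462 bp upstream with 20.6 and 6.34, was in the DMSO list only. At Chgb the pattern was the other way, with 1 JNKi peak from 268 to 892 bp after the start site (−log10 p 8.08 and 8.52, rank 473 of 1632, IDR 0.196) and the nearest DMSO peak 403511 bp from the gene. Around Ppy and Pyy, the peak 22020 bp upstream of the Ppy start site, near Gm11585, was found in both treatments, and one over the H3K4me3 of Mpp2 in DMSO.

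The AP-1 sequence was near its background at these summits, which are few. Within 100 bp of the summit, TGACTCA or TGAGTCA was found at 10% of all 4960 DMSO cJun peaks and 12.1% of all 1632 JNKi peaks. Outside Ins2, 1 of 9 DMSO peaks near the hormone genes held it, the one 16542 bp upstream of Iapp, and 1 of 5 JNKi peaks, the one near Gm11585. TGACGTCA was found at 0.806% and 1.78% of all cJun summits and at none of these. The 201 bases around 3 of the summits are shown, the site retained upstream of Iapp, the Iapp site with the AP-1 match, in capitals, and the retained site upstream of Chga.
Iapp, 8556 bp upstream, JNKi summit (chr6:142289767-142289967, plus strand): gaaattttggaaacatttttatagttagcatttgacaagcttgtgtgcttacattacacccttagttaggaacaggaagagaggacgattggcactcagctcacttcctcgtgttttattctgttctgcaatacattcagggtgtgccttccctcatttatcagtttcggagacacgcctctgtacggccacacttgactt
Iapp, 16542 bp upstream, DMSO summit (chr6:142281781-142281981, plus strand): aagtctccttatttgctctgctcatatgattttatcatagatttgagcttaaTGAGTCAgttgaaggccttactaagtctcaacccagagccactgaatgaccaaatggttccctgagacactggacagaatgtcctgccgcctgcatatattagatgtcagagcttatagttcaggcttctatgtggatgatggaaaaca
Chga, 8188 bp upstream, DMSO summit (chr12:102546681-102546881, plus strand): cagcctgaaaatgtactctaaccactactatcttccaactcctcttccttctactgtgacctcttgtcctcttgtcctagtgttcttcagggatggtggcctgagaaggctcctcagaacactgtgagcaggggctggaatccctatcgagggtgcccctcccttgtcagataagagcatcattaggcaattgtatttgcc

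CpG content, a property of the promoter sequence that was not used to choose the genes, was then set beside the mark. CpG-rich promoters tend to carry H3K4me3 in most cell types. In the 500 bp on either side of the main start site, the ratio of observed to expected CpG was 0.616 at Chga, 0.583 at Chgb, 0.577 at Sst, 0.469 at Gcg, 0.319 at Pyy, 0.221 at Iapp, 0.133 at Ghrl, 0.124 at Ppy and 0.0789 at Ins1, with a median of 0.567 over 21850 genes. Of genes with a ratio under 0.4, 15.1% had H3K4me3 at a start site in DMSO, and among the hormone genes this was 1 of 5, Iapp. Of those between 0.4 and 0.6 it was 68.6%, and 2 of 3 hormone genes, without Sst. From 0.6 up it was 92.2%, and Chga was the single hormone gene. Iapp thus had a peak of over 6 kb in a class where 9.41% of the marked genes reached 4 kb, and Sst had none in a class where most genes were marked.

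**Figure D5:**
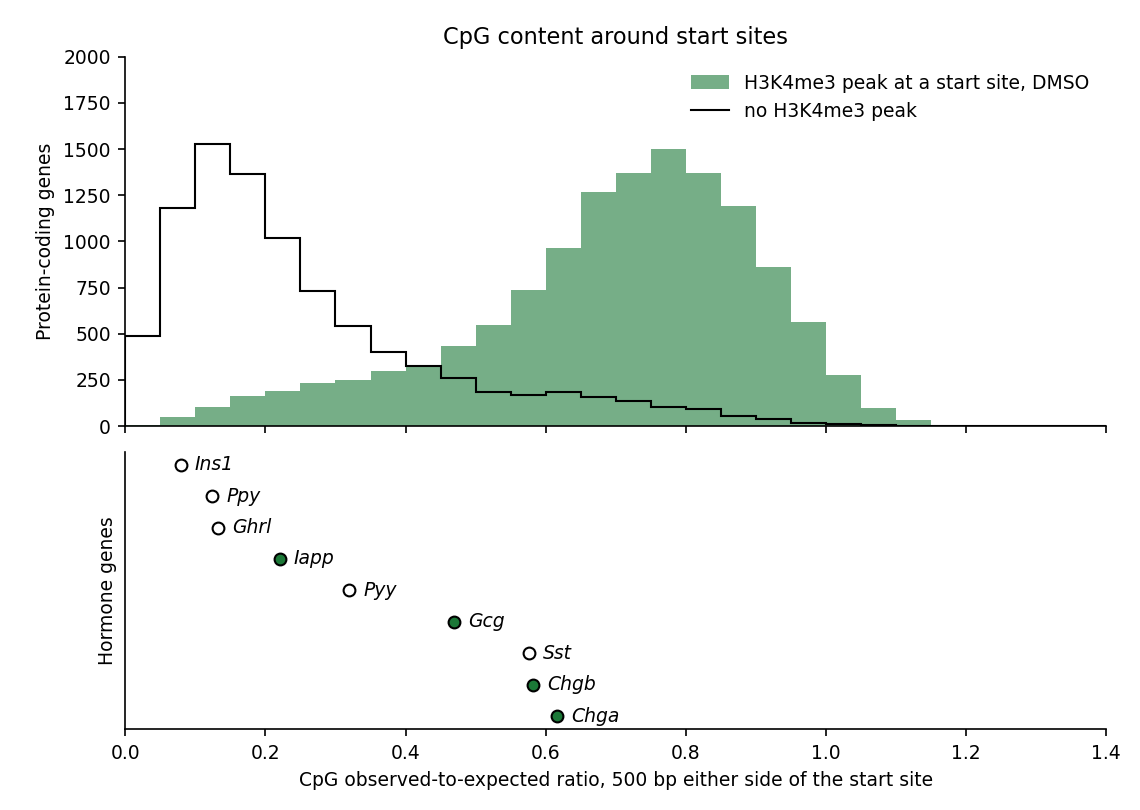
Observed-to-expected CpG ratio in 500 bp on either side of the start site. The upper panel counts protein-coding genes with (green) and without (black outline) an H3K4me3 peak at a start site in DMSO, and the lower panel places 9 hormone genes, filled where they had the peak. Iapp lies at 0.221 where unmarked genes prevail and Sst at 0.577 where marked genes prevail.

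Genes of other secreted peptides were read in the same way. Of 23 other peptide hormone and granin genes, 14 had H3K4me3 at a start site in each treatment (60.9%), near the 58.8% and 58.2% of all protein-coding genes, with a median width of 3447 bp in DMSO and 4000.5 bp in JNKi. The granins Scg2, Scg3, Scg5 and Vgf and the neuropeptide gene Npy were among them. The other marked genes were Adm, Calca, Cck, Crh, Pcsk1n, Pdyn, Sct, Tac1 and Ucn3. Pomc, Penk, Vip, Gal, Gast, Gip, Nts, Insl5 and Trh were not marked. cJun lay at the start sites of Npy, Scg2, Scg3 and Scg5 in DMSO (4 of 23, background 6.89%) and of Scg3 in JNKi (1 of 23, background 2.49%). All 5 genes that process or load hormones were marked, namely the prohormone convertases Pcsk1 and Pcsk2, the carboxypeptidase Cpe, the amidating enzyme Pam and the zinc transporter Slc30a8. Pcsk2 had an H3K4me3 peak of 8729 bp, rank 119 of 19372 in DMSO and rank 51 of 19032 in JNKi, and was the single one of the 5 with cJun at its start site, in DMSO only.

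The β cell label of the line was checked by the same measure. All 10 β cell marker genes had H3K4me3 at a start site in both treatments, with median widths of 8819.5 bp in DMSO and 8918 bp in JNKi. Over all protein-coding genes 58.8% and 58.2% were marked, with the medians of 2591 and 2658 bp given above. Rank by −log10 p varied among the 10. Pcsk1 ranked 200 of 19372 in DMSO and 162 of 19032 in JNKi. Pdx1 ranked 19370 in DMSO, with −log10 p of 3.01 and 10.5, and 16425 in JNKi. Neurod1 ranked 2357 in DMSO and 17931 in JNKi, and G6pc2 18835 and 17316. cJun lay at a start site of 4 of the 10 in each treatment, where the background was 6.89% and 2.49%. Markers of other islet and duct cells were marked in part. Of 4 α cell markers, 3 had H3K4me3 at a start site in DMSO and 2 in JNKi, and of 3 duct cell markers 1 had it in each treatment. The δ cell markers Hhex and Sst, Ppy, Ghrl and the 4 annotated acinar markers were not marked in either treatment. The peak lists give no expression level, and the depth reached by each library was not measured here beside the stated 30000000 paired-end reads.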

How the data were processed

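CUT&RUN peak lists were analysed for 12 samples of Min6 cells, grouped by their labels. Per the submitters' processing notes and the study's methods, the authors trimmed reads with Trimmomatic, aligned them to GRCm38 with Bowtie2 2.4.2, filtered them at a Phred score of 30 with SAMtools 1.16, called narrow peaks against IgG with MACS2 2.2.7.1 and combined the 2 replicates of a group by IDR. The 4 deposited lists have 20 columns and no header. In 100% of peaks the −log10 p-value that the authors deposited is the lower of the replicates' values, and it was never below 3, a p-value floor of 0.001 that default MACS2 calling by q-value, as stated in the methods, would not give. The cut-off used is unknown, so the counts include weak peaks. The deposited score is a scaled IDR. The columns meant for signal and q-value hold a filler. Neither replicate column carries a number. IgG libraries, reads and read totals were not analysed here, so the depth reached is unknown beside the stated 30000000 paired-end reads a sample, and no interval is given.

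All deposited peaks were used. A peak counted at a start site when it came within 1 kb of any GENCODE vM21 basic start site, and near a gene when at least 1 bp lay within 50 kb of the gene body. Where several qualified, the one with the highest −log10 p was taken. Percentiles are within a list or replicate. Promoters were those of RefSeq (GRCm38.p6), and Ins2 had no sequence read. Genes named are the 10 hormone genes, genes whose start site is nearest to a peak within 50 kb of them (or, at Ins1, to the closest peak), and genes of the comparison lists. The genes, lists and limits were chosen with earlier results of these data known. Single genes of the α cell and duct cell marker lists are not reported here. With 1 list per treatment no test was run. The steps were checked on simulated data. Python 3.11.15, numpy 2.4.6, pandas 2.3.3 and matplotlib 3.10.9 were used. Alternatives covered IDR limits, windows, the start site used, the ranking measure, and the CpG window.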

Additional observations from a re-analysis of the deposited data

How the results depend on the processing

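For 22 results, 85 alternative values were computed, of which 41 stayed within the limits set (1.5 times a count, or 1 SD between replicates for a value) and 44 moved, 25 of them percentiles of single genes. The median width ratio of 0.997 became 1.01 at both IDR limits, where 3 genes were left, a shift within the spread of 0.0252 between replicate pairings, so it has no settled direction. At an IDR of at most 0.05 or 0.01, the H3K4me3 start sites marked in DMSO fell from 5 to 3 (without Gcg and Chga), while JNKi stayed at 5. The same limits left 0 cJun start sites in either treatment and, within 50 kb, 0 genes in DMSO and 1 in JNKi. With a peak required over the GENCODE start site itself, 0 JNKi cJun genes remained. With only the 5′ end of the gene record as the start site, 1 did. Within 10 kb of the gene body, 3 genes in DMSO had a cJun peak in place of 5. The median percentile of the 5 marked genes, 60.8 in DMSO and 85.5 in JNKi, became 98.6 and 98.5 when ranked by width, where the JNKi value was no longer the higher, and 36.2 and 74.7 among start-site peaks of protein-coding genes. Ranked by the higher replicate value, an alternative chosen after seeing the data, it was 76.0 in DMSO and 87.3 in JNKi. In the main ranking the median was the Ins2 value in DMSO and the Iapp value in JNKi. Ins2 itself stood at 57.8 in JNKi, Iapp at 79.1 in DMSO, and Chga at 15.2 in DMSO and 97.2 in JNKi. With 250 bp on either side, 2 genes in place of 1 had a CpG ratio of at least 0.6. The fewer peaks an IDR limit leaves, and the narrower a window, lower the counts by construction, and the cause of the other changes was not tested. Limiting Ins2 to its short transcripts, also chosen after seeing the data, changed 0 of the 4 counts within 50 kb. No paired analysis was possible because the replicate columns carry no numbers and no test was run. Leaving out a replicate could not be run, since a list holds only peaks called in both.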

Other observations

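Chga was not alone in having replicates far apart in −log10 p at a broad start-site peak. Among the genes of the comparison lists, chosen here after their values were seen, the H3K4me3 peak of the granin gene Scg2 had −log10 p of 624.3 and 4.80 in the DMSO replicates and 540.0 and 441.5 in JNKi, with DMSO widths of 5768 and 5620 bp. The peak of G6pc2, a β cell glucose-6-phosphatase, had 303.5 and 4.30 in DMSO and 372.3 and 6.51 in JNKi, with widths of 6764 and 6743 bp in DMSO. The opioid peptide gene Pdyn had 292.9 and 309.5 in DMSO and 382.8 and 3.77 in JNKi. The JNKi widths were 7290 and 6389 bp for G6pc2 and 6531 and 6543 bp for Pdyn. What sets these values apart was not tested.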
